A study of Mus musculus with 4 samples.

Results

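The genes described here encode proteins of membrane microdomains: the flotillins Flot1 and Flot2 and the tetraspanins Cd9, Cd63, Cd81, Cd82, Cd151 and Tspan7. These 8 genes were taken by a list of mouse symbols, a rule that uses no measured value. The list itself was chosen with earlier results of these data known. Of the 8, 7 had rows in the deposited table, with 11 transcripts among 14236, and Cd82, a tetraspanin known as a suppressor of metastasis, was not analysed here. Values are FPKM (sequenced fragments relative to the length of the transcript and to the total mapped in the library), given per transcript and summed per gene, and the summed table held 11258 genes.

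Flotillins sit on the inner face of the plasma membrane and of endosomes, held there by fatty acid anchors, and assemble into oligomers that mark cholesterol-rich rafts. In fish retinal ganglion cells they were first named reggies for their increase during optic nerve regeneration. Tetraspanins cross the membrane 4 times and bind one another, integrins and cholesterol to form tetraspanin-enriched microdomains. Prominin 1 (PROM1, also called CD133) is itself a cholesterol-binding protein of membrane protrusions, found in cholesterol-based microdomains.

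RNA came from dissociated dorsal root ganglion (DRG) neurons of mouse embryos at embryonic day 13.5. The PROM1 cultures (2 libraries, here PROM1 libraries 1 and 2) received lentivirus carrying human PROM1, and the control cultures (2 libraries, control libraries 1 and 2) received the control virus pLKO. The cultures of both groups grew in nerve growth factor with the antimitotic fluorodeoxyuridine and with uridine, and virus was added on day 2 in vitro. For both groups, day 5 in vitro is given for replating or RNA. The sources used here give no mouse strain, no promoter for PROM1 and no share of transduced cells, and the level of PROM1 was not analysed here.

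The library FPKM values summed to between 357805 and 385963, and read depth is unknown. Transcripts listed at exactly 0 numbered 121 and 237 in PROM1 libraries 1 and 2, and 89 and 283 in control libraries 1 and 2. Of the sensory neuron markers, 10 of 10 were listed, with a summed level of 4427 and 5115 FPKM in PROM1 libraries and 5276 and 5625 FPKM in control libraries. Of these markers 3 had a higher and 7 a lower mean in PROM1 cultures, 0 passed (limma; 0 at an unadjusted p under 0.05), and the median log2 change was -0.12. The lower sum in PROM1 libraries came from Uchl1, a neuronal ubiquitin hydrolase and the most abundant of them, and Stmn2, a growth cone stathmin. Without this pair, singled out after the values were seen, the other 8 markers summed to 2158 and 2633 FPKM in PROM1 libraries and 2290 and 2469 FPKM in control libraries, so the groups overlapped. Prph, which encodes the intermediate filament peripherin, averaged 1074 FPKM in PROM1 cultures and 987 FPKM in control cultures. In bulk RNA fewer cells of a type and less RNA per cell cannot be told apart. The series text calls the libraries of a group biological duplicates.

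None of the 7 listed genes passed the test between PROM1 and control cultures. On the log2(FPKM + 1) scale 2 had a higher mean and 5 a lower mean in PROM1 cultures, with limma adjusted p between 0.939 and 0.987 and with none at an unadjusted p under 0.05. Over all 10108 genes tested, limma called 2 (0.0198%) at an adjusted p under 0.05, and 475 (4.70%) had an unadjusted p under 0.05. In 2 of the 7 genes, the flotillins, the PROM1 libraries were both lower than either control library, where 17.5% of all tested genes showed this. They were both higher for 0 of the 7, where 16.5% of all tested genes showed that. The median log2 change of the 7 genes was -0.18, and that of all tested genes was -0.03. In the authors' deposited table, q was under 0.05 for 18 of 14236 transcripts (0.126%). The authors marked 29 transcripts (0.204%) as significant there, with q up to 0.0982, and none of the 11 transcripts described here was among them. With 2 libraries in each group, 0.333 is the smallest two-sided p an exact permutation test allows.

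Flot1, which encodes flotillin 1, had 83.5 and 58.5 FPKM in PROM1 libraries 1 and 2, against 105.6 and 88.5 FPKM in control libraries 1 and 2. Both PROM1 libraries were lower than both control libraries, by a narrow margin between PROM1 library 1 and control library 2. The mean was 71.0 ± 17.7 FPKM in PROM1 cultures and 97.0 ± 12.1 FPKM in control cultures (SD, n = 2 each). For Flot1 the log2 change was -0.46 ± 0.24 (SE), with a 95% interval from -1.07 to 0.15 and a limma adjusted p of 0.939. This interval runs from 2.10-fold lower to 1.11-fold higher in PROM1 cultures. Between libraries with the same number the log2 ratio of FPKM + 1 was -0.34 for number 1 and -0.59 for number 2. In the authors' deposited table the single listed transcript, NM_008027, stood at 58.7 FPKM in PROM1 cultures and 81.2 FPKM in control cultures (p = 0.0798, q = 0.865).

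Flot2, which encodes flotillin 2, the partner of flotillin 1 in mixed oligomers, had the highest mean level of the set over the 4 libraries, although Cd81 was higher in both PROM1 libraries. Its 3 listed transcripts summed to 211.4 and 175.3 FPKM in PROM1 libraries 1 and 2, against 216.9 and 245.4 FPKM in control libraries 1 and 2. PROM1 library 2 was the lowest and control library 2 the highest, while PROM1 library 1 and control library 1 differed little. Over the summed transcripts the log2 change was -0.26 ± 0.19 (SE), with a 95% interval from -0.75 to 0.23 and a limma adjusted p of 0.939. Flot1 and Flot2 together came to 294.8 and 233.8 FPKM in PROM1 libraries 1 and 2, against 322.5 and 333.9 FPKM in control libraries 1 and 2. The Flot1 to Flot2 ratio of levels was 0.395 and 0.333 in PROM1 libraries and 0.487 and 0.361 in control libraries, so these ratios overlapped between the groups. The summed sensory neuron markers were also lower in both PROM1 libraries (4427 and 5115 FPKM) than in both control libraries (5276 and 5625 FPKM). Of the 10 markers, 7 had a lower and 3 a higher mean in PROM1 cultures. The PROM1 libraries were both lower for 4 of them (17.5% of all tested genes) and both higher for 2 (16.5%). Without Uchl1 and Stmn2, a pair singled out after the values were seen, the summed markers overlapped between the groups. The part of the neuron share in the flotillin levels was not tested.

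**Figure D1:**
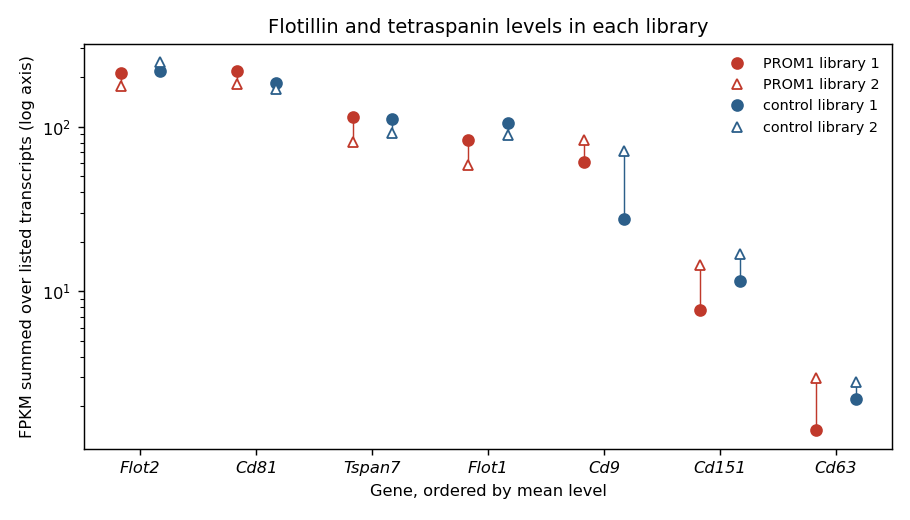
FPKM summed over the listed transcripts of each gene (log axis), with genes ordered by mean level and PROM1 libraries left of control libraries; filled circles are libraries numbered 1 and open triangles libraries numbered 2. Flot1 and Flot2 are the only genes shown whose PROM1 libraries both lie below both control libraries, and Cd9 has the widest gap between control libraries (27.5 and 70.6 FPKM).

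The transcripts of Flot2 behaved differently from their sum. NM_001284228 had 172.8 and 0.109 FPKM in PROM1 libraries 1 and 2, against 179.2 and 40.7 FPKM in control libraries 1 and 2. NM_001040403 had 32.0 and 175.2 FPKM in PROM1 libraries 1 and 2, against 36.4 and 204.7 FPKM in control libraries 1 and 2. The libraries numbered 1 thus gave most of the Flot2 level to NM_001284228 (81.8% in PROM1 and 82.6% in control), and the libraries numbered 2 gave most of it to NM_001040403 (99.9% in PROM1 and 83.4% in control). The third transcript, NM_001284227, held at most 3.10% of the sum in any library. GENCODE M21 links NM_001284228 to a transcript of 12 exons that codes for 379 residues, and NM_001040403 and NM_001284227 to a single transcript of 11 exons that codes for 428. The split followed the library number in both groups and did not separate PROM1 from control cultures.

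In the authors' deposited table, which has 1 value per group, NM_001040403 was 24.0 FPKM in PROM1 cultures and 75.9 FPKM in control cultures, a 3.16-fold lower value in PROM1 cultures (p = 0.0659, q = 0.865). That deposited PROM1 value lies below both PROM1 library values of this transcript, 32.0 and 175.2 FPKM. Summed over the 3 transcripts, the values in the authors' deposited table were 187.0 FPKM in PROM1 cultures and 223.2 FPKM in control cultures. Such gaps between group and library values were common in the authors' deposited table: the group value lay outside the range of its own libraries for 57.0% of transcripts in PROM1 and 54.4% in control cultures.

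**Figure D2:**
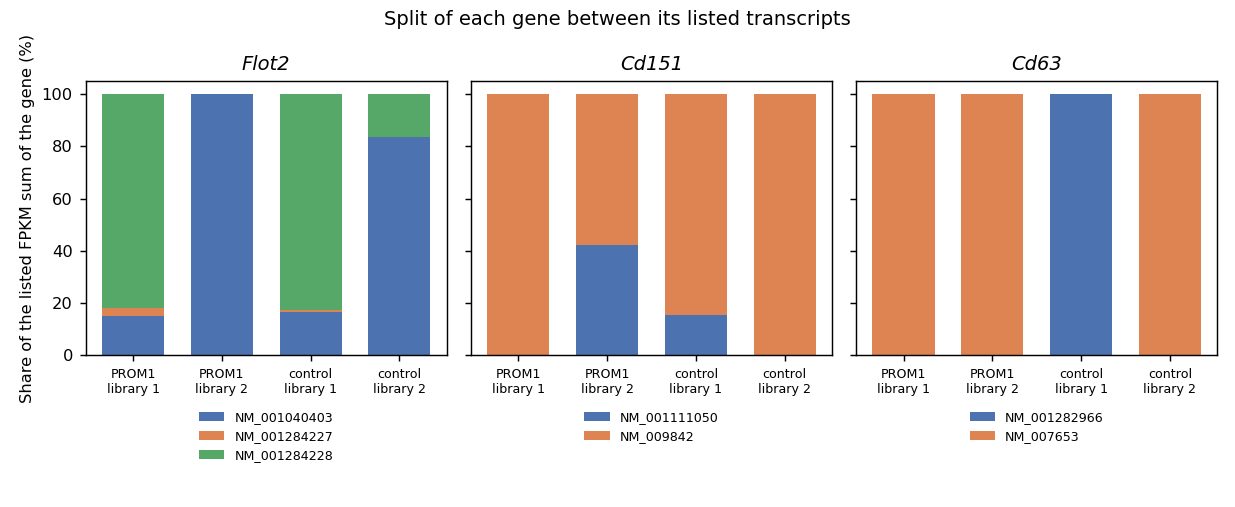
Share of the listed FPKM sum (%) that each transcript of Flot2, Cd151 and Cd63 held in PROM1 libraries 1 and 2 and control libraries 1 and 2. Flot2 is mostly NM_001284228 in both libraries numbered 1 and mostly NM_001040403 in both libraries numbered 2.

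All 3 listed transcripts of Flot2, as placed by GENCODE M21, start within 50 nt of the same RefSeq start, so they share the upstream sequence shown here. Promoters are printed for Flot2, for Cd9 and its close relative Cd81, and for the pair of Cd151 starts whose transcripts were listed apart. Each sequence is the 250 bases before the start, 5′ to 3′ on the strand of the gene, from RefSeq on GRCm38.p6, with GC boxes (GGGCGG or its reverse complement) in capitals. The Flot2 window is chr11:78037681-78037930 (plus strand).
Flot2: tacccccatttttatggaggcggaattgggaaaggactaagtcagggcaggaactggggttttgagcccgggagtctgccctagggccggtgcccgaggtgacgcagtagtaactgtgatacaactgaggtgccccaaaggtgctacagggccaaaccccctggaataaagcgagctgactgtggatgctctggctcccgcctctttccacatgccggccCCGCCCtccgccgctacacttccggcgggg
It held 1 GC box, a motif bound by Sp1, which occurred in 32.7% of 32851 RefSeq promoter windows of this length. The E-box CACGTG (6.02% of windows) and TATAAA (12.4%), searched on both strands, were not found in this window, nor in any of the windows printed below.

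Cd9, which encodes a tetraspanin needed for gamete fusion and also made by Schwann cells, had the largest difference of the 7 genes. It had 60.5 and 82.8 FPKM in PROM1 libraries 1 and 2, against 27.5 and 70.6 FPKM in control libraries 1 and 2. Control library 1 stood alone at the bottom, and control library 2 lay between the PROM1 libraries, so the groups overlapped. The mean was 71.7 ± 15.7 FPKM in PROM1 cultures and 49.1 ± 30.5 FPKM in control cultures (SD, n = 2 each). The log2 change was 0.67 ± 0.46 (SE), or 1.59-fold, with a 95% interval from -0.48 to 1.82 and a limma adjusted p of 0.939. It was 0.00 without control library 1 and 1.33 without control library 2, so the size of the difference rested on which control library was kept. A change at least this large in either direction was found for 11.7% of all tested genes. In the authors' deposited table Cd9 stood at 66.5 FPKM in PROM1 cultures and 40.3 FPKM in control cultures (p = 0.0234, q = 0.865).

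Cd81, the closest relative of Cd9 in the set, had 218.9 and 180.9 FPKM in PROM1 libraries 1 and 2, against 183.0 and 170.0 FPKM in control libraries 1 and 2. PROM1 library 1 was the highest, and PROM1 library 2 lay just under control library 1. The mean was 199.9 ± 26.9 FPKM in PROM1 cultures and 176.5 ± 9.24 FPKM in control cultures (SD, n = 2 each). The log2 change was 0.17 ± 0.19 (SE), with a 95% interval from -0.31 to 0.65 and a limma adjusted p of 0.945. The upper end of that interval is 1.57-fold higher. Cd9 plus Cd81 summed to 279.4 and 263.6 FPKM in PROM1 libraries and 210.6 and 240.6 FPKM in control libraries. This sum, formed after the values were seen and not tested, did not overlap between the groups, although each gene did. The Cd9 to Cd81 ratio of levels was 0.277 and 0.458 in PROM1 libraries and 0.151 and 0.416 in control libraries, with the lower ratio in the library numbered 1 of each group.

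The Cd9 window is chr6:125494761-125495010 (minus strand) and the Cd81 window is chr7:143052500-143052749 (plus strand). Both genes had higher means in PROM1 cultures, but neither passed the test and the groups overlapped for each.
Cd9: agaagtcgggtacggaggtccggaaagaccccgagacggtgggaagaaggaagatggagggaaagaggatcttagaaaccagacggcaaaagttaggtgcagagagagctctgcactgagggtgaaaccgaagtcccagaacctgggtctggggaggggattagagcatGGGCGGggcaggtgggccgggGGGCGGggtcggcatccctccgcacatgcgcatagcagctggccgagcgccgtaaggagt
Cd81: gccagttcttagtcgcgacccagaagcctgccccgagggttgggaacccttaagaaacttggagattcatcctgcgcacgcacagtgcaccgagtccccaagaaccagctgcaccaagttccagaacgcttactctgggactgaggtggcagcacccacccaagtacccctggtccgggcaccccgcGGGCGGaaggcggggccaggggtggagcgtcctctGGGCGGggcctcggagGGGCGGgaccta
GC boxes numbered 2 in the Cd9 window and 3 in the Cd81 window, and neither window held TATAAA. The GC content was 61.6% for Cd9 and 65.6% for Cd81, where the median of all windows was 52.4%. Among genes with lower means, the Tspan7 window held 2 GC boxes (69.2% GC) and the Flot2 window 1 (60.8%). The Cd151 windows held 2 upstream (62.4%) and 0 downstream (58%), and the Cd63 window 0 (48.8%). These matches describe the letters and do not show that a factor binds.

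Cd151, whose product ties laminin-binding integrins into tetraspanin microdomains, was a gene of moderate level. Its listed transcripts summed to 7.65 and 14.5 FPKM in PROM1 libraries 1 and 2, against 11.5 and 16.7 FPKM in control libraries 1 and 2. The groups overlapped, and in both groups the library numbered 2 was the higher. On the summed level the log2 change was -0.36 ± 0.36 (SE), with a 95% interval from -1.27 to 0.54 and a limma adjusted p of 0.942. Without PROM1 library 1 it was 0.06.

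Of the Cd151 transcripts, NM_009842 had 7.65 and 8.34 FPKM in PROM1 libraries 1 and 2, against 9.68 and 16.7 FPKM in control libraries 1 and 2. Both PROM1 libraries were lower for this transcript, although the groups overlapped for the sum of the gene. At the summed level, 17.5% of all tested genes had both PROM1 libraries lower. NM_001111050, which begins at a start further downstream, was near 0 in PROM1 library 1 and control library 2, at 6.11 FPKM in PROM1 library 2 and at 1.79 FPKM in control library 1. It held 42.3% of the gene's sum in PROM1 library 2 and 15.6% in control library 1. Both transcripts code for the same length of 253 residues in GENCODE M21. In the authors' deposited table NM_009842 was 10.6 FPKM in PROM1 cultures and 23.7 FPKM in control cultures, 2.24-fold lower in PROM1 cultures (p = 0.0214, q = 0.865). That deposited control value of 23.7 FPKM lies above both control library values, 9.68 and 16.7 FPKM. For NM_001111050 the authors' deposited table gave 7.51 FPKM in PROM1 cultures and 0.701 FPKM in control cultures (p = 0.387, q = 0.884).

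The starts of these transcripts differ in the letters before them. The upstream window, for NM_009842, is chr7:141467112-141467361 (plus strand), and the downstream window, for NM_001111050, is chr7:141468539-141468788 (plus strand).
Cd151 upstream start: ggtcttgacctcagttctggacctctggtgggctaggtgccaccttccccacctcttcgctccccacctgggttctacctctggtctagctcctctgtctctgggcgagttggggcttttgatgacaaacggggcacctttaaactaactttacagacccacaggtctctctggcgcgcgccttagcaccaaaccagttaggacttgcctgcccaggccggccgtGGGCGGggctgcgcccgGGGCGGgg
Cd151 downstream start: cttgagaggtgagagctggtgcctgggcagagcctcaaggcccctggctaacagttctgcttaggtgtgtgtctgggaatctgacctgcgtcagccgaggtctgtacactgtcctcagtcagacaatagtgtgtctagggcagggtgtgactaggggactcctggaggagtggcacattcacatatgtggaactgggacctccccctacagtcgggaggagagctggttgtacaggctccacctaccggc
The upstream window held 2 GC boxes and the downstream window held none.

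Tspan7, an X-linked tetraspanin of neurons that acts in dendritic spines and AMPA receptor trafficking, had 114.8 and 80.1 FPKM in PROM1 libraries 1 and 2, against 111.2 and 91.8 FPKM in control libraries 1 and 2. The PROM1 libraries spanned the control libraries. The log2 change was -0.07 ± 0.24 (SE), with a 95% interval from -0.69 to 0.54 and a limma adjusted p of 0.987. This is the smallest difference of the 7 genes, and its interval still includes 1.61-fold lower and 1.45-fold higher levels in PROM1 cultures. It changed sign to 0.18 without PROM1 library 2 and to 0.06 without control library 1.

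Cd63, the tetraspanin of late endosomes, lysosomes and exosomes, was listed at 1.43 and 2.95 FPKM in PROM1 libraries 1 and 2, against 2.22 and 2.81 FPKM in control libraries 1 and 2. The groups overlapped, with PROM1 library 1 the lowest and PROM1 library 2 the highest. Its log2 change was -0.18 ± 0.37 (SE), with a 95% interval from -1.10 to 0.74 and a limma adjusted p of 0.977. These values cover 2 of the 3 mRNA accessions that RefSeq on GRCm38.p6 gives for Cd63, so they may not be the level of the whole gene. The sources used here give no annotation release, so it is unknown whether the authors' annotation held the unlisted accession. Control library 1 gave nearly all of its listed Cd63 level to NM_001282966 (2.22 FPKM), and the other 3 libraries gave nearly all of theirs to NM_007653. Likewise the listed transcripts covered 3 of 7 accessions for Flot2 and 2 of 3 for Cd151, while the single accessions of Flot1, Cd9, Cd81 and Tspan7 were all listed.

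**Figure D3:**
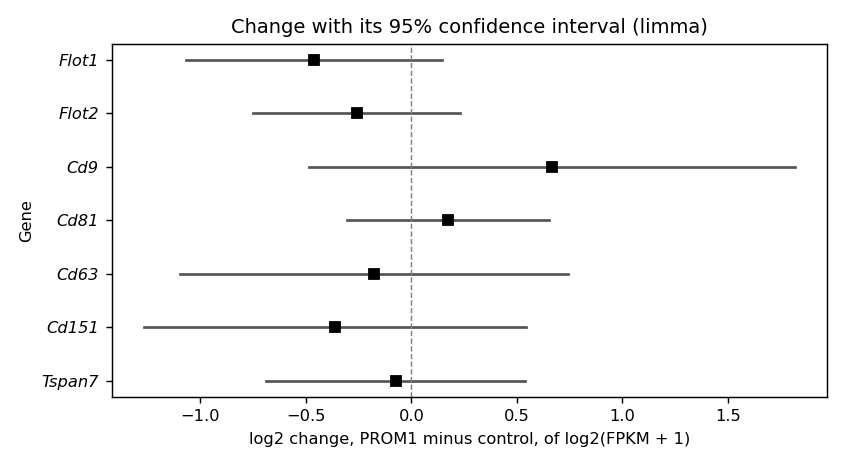
The log2 change of log2(FPKM + 1), PROM1 minus control, for each gene (squares) with its 95% confidence interval from limma (lines). All 7 intervals cross 0, from the narrowest at Cd81 (-0.31 to 0.65) to the widest at Cd9 (-0.48 to 1.82).

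By mean level over the 4 libraries, in FPKM, the order was Flot2 (212.3), Cd81 (188.2), Tspan7 (99.5), Flot1 (84.0), Cd9 (60.4), Cd151 (12.6) and Cd63 (2.35). The ranges over the 4 libraries overlapped between Flot2 and Cd81, between Tspan7 and Flot1, and between Flot1 and Cd9. Compared within each library, Flot2 was above Cd81 in 2 of 4 libraries, both of them control libraries, Tspan7 above Flot1 in 4 of 4, and Flot1 above Cd9 in 3 of 4. The lowest Cd81 library (170.0 FPKM) lay above the highest Tspan7 library (114.8 FPKM), and the lowest Cd9 library (27.5 FPKM) above the highest Cd151 library (16.7 FPKM). Genes at or above the level of Flot2 made up 2.39% of the tested genes, those at or above Cd81 2.80%, and those at or above Cd9 8.83%. The place of Flot2, Cd151 and Cd63 in this order covers their listed transcripts alone.

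The median spread between libraries of a group was near that of all tested genes, which were not matched to the 7 genes by level. The median pooled replicate SD of the 7 genes was 0.29 on the log2 scale, and that of all tested genes was 0.27. It was smallest for Cd81 (0.15) and Flot2 (0.16) and largest for Cd9 (0.70) and Cd151 (0.49). For 6 of the 7 genes the same library number was the higher in both groups, which was so for 57.5% of all tested genes, and Flot2 was the exception. Flot1, Cd81 and Tspan7 were higher in the libraries numbered 1, and Cd9, Cd151 and Cd63 in the libraries numbered 2. The labels do not say what the numbers mark, and the part of a shared batch in these levels was not tested.

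Set against each other within a library, the flotillins and the 5 listed tetraspanins of the set had ratios that did not overlap between the groups. The sum of Flot1 and Flot2 over the sum of the 5 listed tetraspanins was 0.731 and 0.647 in PROM1 libraries 1 and 2, against 0.961 and 0.949 in control libraries 1 and 2. The mean ratio was 0.689 ± 0.0592 in PROM1 cultures and 0.955 ± 0.00903 in control cultures (SD, n = 2 each). The 5 tetraspanins summed to 403.3 and 361.2 FPKM in PROM1 libraries, against 335.4 and 352.0 FPKM in control libraries. The 14 other listed tetraspanins, outside this ratio, summed to 239.3 and 202.7 FPKM in PROM1 libraries and 259.6 and 221.2 FPKM in control libraries. Those sums overlapped between the groups. Of all tested single genes, 16.5% had both PROM1 libraries higher and 17.5% had both lower. The ratio of flotillins to the 5 tetraspanins does not depend on the scaling between libraries. It was formed after the values were seen, and it is given as a description with no test.

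**Figure D4:**
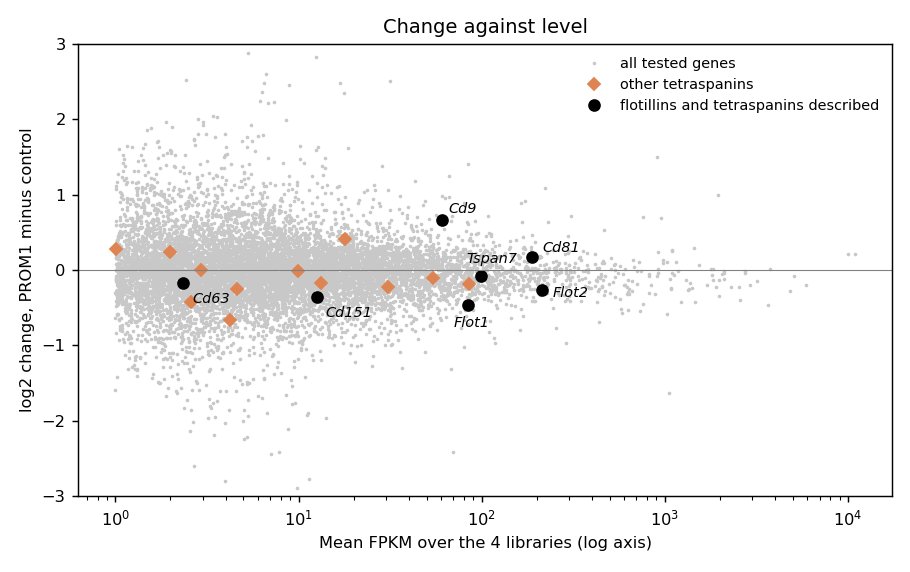
The log2 change, PROM1 minus control, against mean FPKM over the 4 libraries (log axis) for all tested genes (grey), the described genes (black) and other tetraspanins (orange); 39 genes beyond a log2 change of 3 in either direction fall outside the axis. Cd9 lies highest of the black points at 0.67 and Flot1 lowest at -0.46, both within the grey cloud.

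Other tetraspanins were listed for 14 of 25 genes, and 12 were tested. Of these 4 had a higher and 8 a lower mean in PROM1 cultures, 0 passed (limma) and 1 had an unadjusted p under 0.05, with a median log2 change of -0.14. The most abundant was Tspan13, with 91.5 and 68.1 FPKM in PROM1 libraries and 102.1 and 79.4 FPKM in control libraries. Tspan31 had 53.2 and 51.1 FPKM in PROM1 libraries and 65.6 and 48.0 FPKM in control libraries, and Tspan4, a tetraspanin of migrasomes, had 33.4 and 23.7 FPKM in PROM1 libraries and 37.4 and 29.2 FPKM in control libraries. Those 3 genes overlapped between the groups.

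Tspan5 and Tspan17 belong to the tetraspanins that escort the protease ADAM10 to the cell surface, and they stood on opposite sides. Tspan5 had 21.7 and 19.6 FPKM in PROM1 libraries and 14.1 and 16.6 FPKM in control libraries, a log2 change of 0.41 ± 0.21 (SE). Tspan17 had 3.02 and 3.08 FPKM in PROM1 libraries and 5.84 and 5.04 FPKM in control libraries, a log2 change of -0.67 ± 0.26 (SE). The groups did not overlap for either gene, and both had a limma adjusted p of 0.939. Tspan6 had 2.82 and 1.39 FPKM in PROM1 libraries and 2.85 and 3.29 FPKM in control libraries, a log2 change of -0.43. Its groups did not overlap either, by a narrow margin. Among the 12 tested other tetraspanins, the PROM1 libraries were both higher for 3 (16.5% of all tested genes) and both lower for 3 (17.5%).

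The relatives of flotillins with the same SPFH domain (stomatins, prohibitins and erlins) were tested for 7 of 9 genes, of which 5 had a higher and 2 a lower mean in PROM1 cultures and 0 passed (limma; 0 at an unadjusted p under 0.05). Their median log2 change was 0.11. Phb2, a mitochondrial prohibitin, had 41.6 and 57.4 FPKM in PROM1 libraries and 44.6 and 45.7 FPKM in control libraries. Its partner Phb had a log2 change of -0.06 and the stomatin relative Stoml1 of 0.19. Stoml2 had 15.9 and 19.7 FPKM in PROM1 libraries and 8.79 and 17.3 FPKM in control libraries, a log2 change of 0.48 ± 0.35 (SE). Erlin2 and Erlin1, of the endoplasmic reticulum, had log2 changes of 0.23 and -0.19.

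Of the caveolar genes, whose invaginated rafts differ from flotillin domains, 5 of 9 were tested, 2 had a higher and 3 a lower mean, and 0 passed (limma; 0 at an unadjusted p under 0.05), with a median of -0.10. Cav1, the main coat protein of caveolae, was low at 3.80 and 4.37 FPKM in PROM1 libraries and 3.20 and 4.95 FPKM in control libraries. The ATPase Ehd2, which sits at the caveolar neck, had 27.5 and 27.0 FPKM in PROM1 libraries and 32.3 and 26.5 FPKM in control libraries. The log2 changes of Prkcdbp (cavin 3), Cav2 and Pacsin2 were -0.24, -0.19 and 0.07.

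Partners and modifiers were tested for 12 of 14 genes, of which 5 had a higher and 7 a lower mean and 0 passed (limma; 0 at an unadjusted p under 0.05), with a median of -0.07. Igsf8, a direct immunoglobulin-domain partner of CD9 and CD81, had 9.09 and 6.84 FPKM in PROM1 libraries and 13.5 and 11.2 FPKM in control libraries. Its log2 change was -0.59 ± 0.25 (SE) with a limma adjusted p of 0.939, the direction opposite to the means of Cd9 and Cd81. Fyn, an acylated kinase of rafts, had 28.7 and 20.3 FPKM in PROM1 libraries and 35.3 and 32.3 FPKM in control libraries, a log2 change of -0.46 ± 0.24 (SE). Zdhhc2, a palmitoyltransferase that acts on CD9 and CD151, had 61.8 and 43.1 FPKM in PROM1 libraries and 32.2 and 48.3 FPKM in control libraries, so the groups overlapped. Zdhhc5, which palmitoylates flotillin 2, had a log2 change of -0.19, and Itga3, an integrin chain bound by CD151, of -0.11.

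Lipid-anchored raft proteins of neurons were tested for 14 of 14 genes, of which 6 had a higher and 8 a lower mean in PROM1 cultures. None passed in limma, with 1 gene at an unadjusted p under 0.05. The PROM1 libraries were both lower than either control library for 6 of them, where 17.5% of all tested genes showed this, and both higher for 3, where 16.5% did. The median log2 change was -0.07. The acylated growth cone proteins Basp1 and Gap43 were the most abundant, with 778.3 and 702.6 FPKM of Basp1 in PROM1 libraries and 780.6 and 711.2 FPKM in control libraries. The log2 change of Gap43 was -0.13, and that of Cd24a, a GPI-anchored sialoglycoprotein, was -0.14. The GPI-anchored contactin Cntn1 had 110.9 and 106.0 FPKM in PROM1 libraries and 143.9 and 124.3 FPKM in control libraries, a log2 change of -0.30 ± 0.18 (SE). Gfra3, the GPI-anchored artemin receptor, had 19.0 and 32.1 FPKM in PROM1 libraries and 39.9 and 40.6 FPKM in control libraries. Cntn2 and Opcml had log2 changes of -0.56 ± 0.26 and 0.80 ± 0.41 (SE).

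Markers of other cell types are set beside Cd9, whose mean was higher in PROM1 cultures. Of 13 markers of Schwann and satellite glia, 6 were listed, with a summed level of 49.2 and 51.1 FPKM in PROM1 libraries and 81.0 and 60.9 FPKM in control libraries. This glial sum was lower in PROM1 libraries. Of the 6 tested glial markers, 1 had a higher and 5 a lower mean in PROM1 cultures. The PROM1 libraries were both lower for 2 of the 6 (17.5% of all tested genes) and both higher for 0 (16.5%). The most abundant of them was Pmp22, a myelin protein gene, with 18.8 and 20.7 FPKM in PROM1 libraries and 44.9 and 28.8 FPKM in control libraries. Pmp22 held between 38.2% and 55.5% of the glial sum. Without it, the other 5 markers summed to 30.4 and 30.4 FPKM in PROM1 libraries and 36.0 and 32.1 FPKM in control libraries. Mbp and S100b were the next most abundant, with log2 changes of -0.20 and -0.15. The 2 listed macrophage markers of 10 summed to 1.79 and 1.99 FPKM in PROM1 libraries and 3.80 and 3.51 FPKM in control libraries, and the complement gene C1qb was the more abundant. Of 9 fibroblast markers 5 were listed, led by Fbln1, Col1a1 and Thy1, and they summed to 9.47 and 13.9 FPKM in PROM1 libraries and 5.14 and 5.71 FPKM in control libraries. This fibroblast sum was higher in PROM1 libraries, the same direction as the mean of Cd9. All 4 tested fibroblast markers had a higher mean there, and the PROM1 libraries were both higher for 2 of them (16.5% of all tested genes). Of 10 endothelial and pericyte markers only Acta2 was listed, with 3.43 and 1.51 FPKM in PROM1 libraries and 3.63 and 3.83 FPKM in control libraries. Both PROM1 libraries were lower for Acta2 and for C1qb, the only tested marker of each of these lists (17.5% of all tested genes). No listed marker of these lists was at 0 in all 4 libraries, and none passed the test (limma adjusted p of 0.939 at the lowest, with 1 glial, 1 fibroblast and 1 macrophage marker at an unadjusted p under 0.05). The part of these cells in the levels of Cd9 and its relatives was not tested.

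Some loci overlap other genes in the RefSeq annotation of GRCm38.p6, namely Cd9 (Gm28809 and Gm26728), Cd81 (R74862) and Cd151 (Gm10575). The sources used here do not give the authors' use of strand, so reads of an overlapping gene could be included in those values.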

How the data were processed

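RNA libraries of 2 PROM1 and 2 control cultures, grouped by their titles, were used. Per the labels' protocols, polyadenylated RNA over 200 nt went into Lexogen SENSE libraries that were sequenced as single ends of 50 nt. CASAVA, TopHat2 and the mouse build mm9 are named in the submitters' processing notes. The sources used here give no annotation release, no versions and no use of strand. Per the file headers, the authors computed 1 FPKM per transcript and library with Cufflinks and 1 FPKM per group. They also deposited p-values and q-values for the 2 groups, −log10 p-values, a log2 ratio of group values with 0.1 added to each FPKM, and a second ratio column, used here as a score, that the authors filled with a placeholder of very large size where a group is 0. FPKM carries no read counts, so no count test or counting interval was used.

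Symbols came from the deposited descriptions (13996 transcripts) or by accession from RefSeq on GRCm38.p6 (240). The 39 transcripts with a missing value were left out, and FPKM was summed per symbol. Genes averaging at least 1 FPKM over the 4 libraries (10108, all 7 listed members among them) were fitted with limma 3.58.1 (R 4.3.3) with a variance trend on log2(FPKM + 1), on which low genes' changes are understated. Benjamini-Hochberg adjustment ran over all tested genes, with calls under 0.05. The fit was run on simulated data. The changes planted there were larger than those of the 7 listed members, so changes of their size were not covered. The members and the 10 lists were chosen with earlier results of these data known. All members are named, with up to 4 genes per list by level and 3 by change (3 by level for markers). Alternatives changed the pseudocount, filter, scaling, summing, block and libraries. Promoters came from RefSeq and transcript structures from GENCODE M21.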

Additional observations from a re-analysis of the deposited data

How the results depend on the processing

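None of the 7 genes was called by limma under any of the 12 alternatives, with the lowest adjusted p at 0.711 (Flot1 without PROM1 library 1) and at 0.745 where both groups kept 2 libraries. In 4 of the 12 a group had 1 library, which was assumed to vary like the other group, and 15 of the 28 gene values there had an adjusted p of 1.0, so these 4 show little about the stability of the calls. The direction was kept in 78 of 83 gene values. It reversed for Cd151 without PROM1 library 1 (0.0555), for Cd63 without PROM1 library 1 (0.17) and on its most abundant transcript alone (0.67), and for Tspan7 without PROM1 library 2 (0.18) and without control library 1 (0.06). Leaving out each library in turn gave log2 changes from -0.72 to -0.21 for Flot1, from -0.39 to -0.13 for Flot2, from 0.00 to 1.33 for Cd9, from 0.04 to 0.31 for Cd81, from -0.78 to 0.0555 for Cd151, from -0.53 to 0.17 for Cd63 and from -0.33 to 0.18 for Tspan7. The median of the 7 genes ran from -0.30 to 0.04 without each library and was 0.05 per transcript. Over all genes, limma called 0 per transcript (517 at an unadjusted p under 0.05) and 0 without small RNA records (505 at an unadjusted p under 0.05), 3 with a pseudocount of 0.1, and between 2 and 15 without each library in turn. With the replicate number as a block, limma called 2 genes, none of them described here, and the block left the log2 change of Flot1 at -0.46 (adjusted p = 0.745). The labels do not say that same-numbered libraries were paired; their deviations from the group means correlated at r = 0.14 across genes. Of 117 list medians under the alternatives, 3 moved by more than the replicate spread, all of fibroblast or macrophage markers. With 2 libraries a group and unknown depth, changes of the sizes seen here were not separable from replicate spread.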
